A study of Homo sapiens with 4 samples.

Results

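The mitochondrial genome carries 37 genes, and all of them were present among the 58735 genes of the deposited count table, where they were chosen by the prefix of their symbols. They are 13 mRNAs, 2 rRNAs and 22 tRNAs. The cells were HEK293T, a human embryonic kidney line, in which the chromatin remodelling gene PBRM1 had been disrupted with CRISPR. For 48 h they expressed GFP-tagged PBRM1 from a transfected plasmid, as the mutant P1048R, T1202K or C1233W, or as the unaltered protein (WT). Every culture, WT included, therefore carried the knockout background, the GFP tag and the transfection. Not given in the sources used here are whether the knockout line was 1 clone and which share of the cells took up plasmid. There was 1 library per construct, so each difference below is a difference between libraries with no replicate check, and each interval covers counting error only. In a culture measured as a whole, fewer transcripts per cell and fewer cells carrying them cannot be told apart.

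Mitochondrial DNA is transcribed from both strands as long precursor RNAs that run through many genes. In most of the genome tRNAs lie between the other genes, and cutting the tRNAs out releases the mRNAs and rRNAs. The mRNAs encode core subunits of respiratory complexes I, III and IV and of the ATP synthase (complex V), and each of these enzymes also needs subunits made from nuclear genes. Of the 37 genes, 28 give RNAs of the heavy-strand transcript and 9 give RNAs of the light-strand transcript. The 9 are MT-ND6 and 8 tRNAs.

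Libraries held between 10246250 and 11205322 counted reads. Levels are given in CPM, the reads of a gene per 1000000 reads of a library size corrected with trimmed-mean (TMM) factors, and 16262 genes reached 1 CPM in some library and were compared. A gene passed the size rule when its log2 ratio was at least 1 in size, which is 2-fold, and its 95% counting interval excluded 0. PBRM1 itself stood at 8805 CPM in P1048R, 15262 in T1202K, 60509 in C1233W and 22768 in WT. These reads can come from the plasmid or from the disrupted gene, and they therefore do not check the knockout. In PBRM1 level WT lay between T1202K and C1233W. Among the mutants PBRM1 rose in the order P1048R, T1202K and C1233W, as did the summed mitochondrial mRNAs given below in CPM. As a share of all counted reads, however, those mRNAs took 4.71% in P1048R and 4.70% in T1202K. The order of P1048R and T1202K in mitochondrial mRNA thus depended on the scaling. Whether the PBRM1 level bears on the mitochondrial RNAs was not tested. All 8 markers chosen for the HEK293 line were among the genes compared, with summed levels of 968 CPM in P1048R, 1182 in T1202K, 1189 in C1233W and 1389 in WT. Of the blood cell markers, CD3E had 0 reads in every library and PTPRC at most 1. Fibroblast markers summed to 16.9 to 32.5 CPM in the mutants and 31.8 CPM in WT, nearly all COL1A1, with COL1A2 at 0. Endothelial markers were at most 0.39 CPM in sum in any library.

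In all 3 mutants every mitochondrial mRNA was lower than in WT, the large rRNA was at about the same level and the small rRNA was higher. The 13 mRNAs together stood at 44203 CPM in P1048R, 45649.6 in T1202K and 53636 in C1233W, against 84668 CPM in WT. Their sums were thus 0.522, 0.539 and 0.633 times that of WT. As a share of all counted reads, the mRNAs took 4.71% in P1048R (95% Clopper-Pearson interval 4.70%–4.72%), 4.70% in T1202K (4.69%–4.71%) and 5.36% in C1233W (5.34%–5.37%), against 7.72% in WT (7.71%–7.74%). With rRNAs and tRNAs included, mitochondrial genes took 5.63%, 5.53% and 6.23% of reads in P1048R, T1202K and C1233W, against 8.48% in WT.

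**Figure D1:**
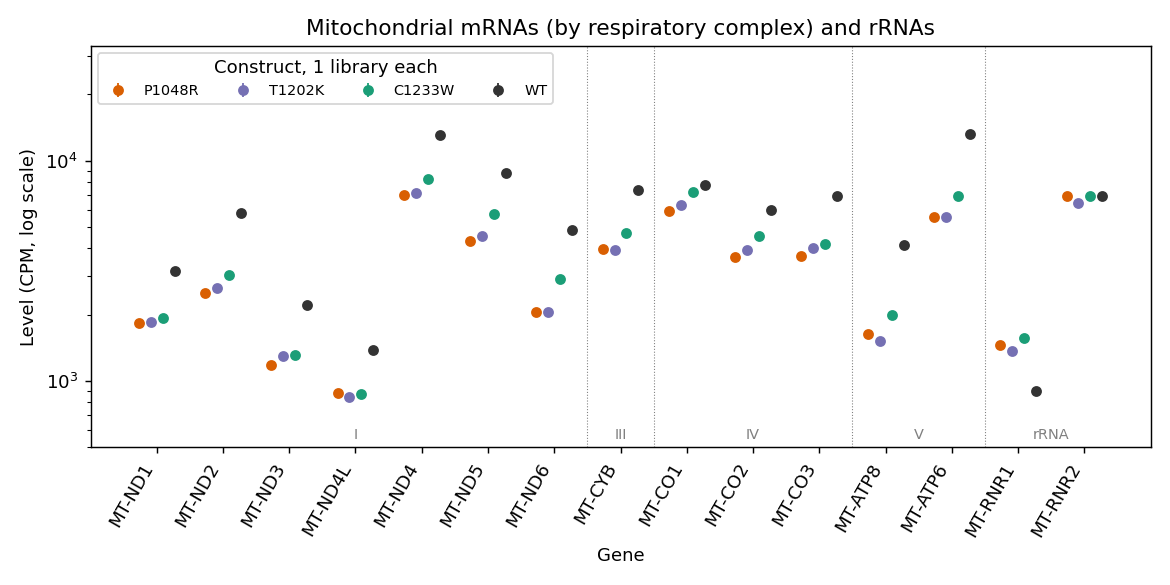
Level in CPM (log axis) of each mitochondrial mRNA, grouped by respiratory complex, and of the rRNAs, with 1 point per construct and bars for the 95% Poisson counting interval, which are mostly smaller than the points. WT lies above all 3 mutants for each of the 13 mRNAs and below them for MT-RNR1, whereas the 4 points of MT-RNR2 lie close together at 6457 to 6952 CPM.

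The median log2 ratio of the 13 mRNAs was -0.90 in P1048R, -0.88 in T1202K and -0.72 in C1233W, against WT. All 16262 genes compared had medians of -0.04, -0.01 and -0.01. Abundant genes outside the mitochondrial genome were also mostly lower in the mutants. Of 245 such genes with at least 500 CPM in a library, a group set after the values were seen, 231 were below WT in P1048R, 228 in T1202K and 220 in C1233W. Their median log2 ratios were -0.45, -0.34 and -0.32. A gene that reached 500 CPM in WT alone is in this group and lies below WT by that choice. How many such genes there were is not given here, so these counts and medians lean toward lower values in the mutants. The size rule was passed by 5 of 13 mRNAs in P1048R, 4 in T1202K and 1 in C1233W, all lower. Among all genes compared, 3.02%, 2.21% and 1.21% passed the rule downward in the same comparisons, and 3.67%, 1.22% and 1.63% of the 245 abundant genes did. The 245 include PBRM1 and MTATP6P1, a nuclear copy of MT-ATP6 described below. Both are among those past the rule downward in P1048R, and MTATP6P1 is also in T1202K.

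Removing the trend of the log2 ratio over GC content and length, fitted on nuclear genes, left MT-ND2 and MT-ATP6 past the rule in P1048R, MT-ATP6 in T1202K and no mRNA in C1233W, although all 13 were still below WT. With libraries scaled by total counts, MT-ATP8, MT-ATP6 and MT-ND6 passed it in P1048R and T1202K, and no mRNA did in C1233W. The mRNAs have a median GC content of 44.3%, against 48.0% for the other genes compared. Across the 13 mRNAs, which share libraries and in part sequence, the log2 ratio went with GC content at Pearson's r of 0.55 in P1048R, 0.55 in T1202K and 0.57 in C1233W, a description over few genes. GC content did not stand alone in this. For the log2 CPM per kb in WT, a level that also enters the ratio, r was -0.62, -0.63 and -0.47. For annotated length r was 0.30, 0.35 and 0.51, and for start position -0.21, -0.23 and -0.05.

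Complex V had the lowest ratios of the 4 complexes. MT-ATP8 and MT-ATP6, which encode subunits of the membrane part of ATP synthase, lie on 1 shared mRNA (chrM:8366-8572 and chrM:8527-9207, plus strand, GRCh38) and their coding sequences overlap by 46 bases. The overlap, shown because reads within it cannot be given to 1 gene alone, carries the start codon of MT-ATP6 and the stop codon of MT-ATP8 in capitals, from the GENCODE 29 transcripts:
MT-ATP8/MT-ATP6 overlap (chrM:8527-8572): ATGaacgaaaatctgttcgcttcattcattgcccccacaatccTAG

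MT-ATP8 stood at 1632 CPM in P1048R, 1527 in T1202K and 1991 in C1233W, against 4142 CPM in WT. Its log2 ratios to WT were -1.34 (-1.37 to -1.32), -1.44 (-1.47 to -1.41) and -1.06 (-1.08 to -1.03), and it was the single mRNA past 2-fold in every mutant. MT-ATP6 stood at 5556 CPM in P1048R, 5561 in T1202K and 6918 in C1233W, against 13203 CPM in WT. It passed the rule in P1048R (-1.25) and T1202K (-1.25) and was just short of 2-fold in C1233W (-0.93, -0.95 to -0.92). Per kb of annotated length these genes had the highest levels of all mitochondrial mRNAs in each library. MT-ATP8 stood at 7378 to 9619 CPM per kb in the mutants, against 20008 in WT, and MT-ATP6 at 8158 to 10158 CPM per kb in the mutants, against 19388 in WT. Reads of MT-ATP8 per 100 reads of MT-ATP6 were 29.4 in P1048R, 27.5 in T1202K and 28.8 in C1233W, against 31.4 in WT, so the ratio of the paired genes moved far less than their levels.

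Complex IV was the least reduced. MT-CO1, the catalytic subunit of cytochrome c oxidase (chrM:5904-7445), stood at 5909 CPM in P1048R, 6296 in T1202K and 7208 in C1233W, against 7732 CPM in WT. Its log2 ratios were -0.39 (-0.40 to -0.37), -0.30 (-0.31 to -0.28) and -0.10 (-0.12 to -0.09), the smallest differences among the mRNAs. On total-count scaling MT-CO1 in C1233W was at 0.03, the 1 mRNA ratio to WT whose sign depended on a scaling. MT-CO2, which holds the copper center that accepts electrons from cytochrome c, stood at 3661, 3922 and 4546 CPM in P1048R, T1202K and C1233W, against 5987 CPM in WT. MT-CO3, the other core subunit, stood at 3702, 4004 and 4193 CPM in the same mutants, against 6907 CPM in WT. The log2 ratios of MT-CO2 ran from -0.71 in P1048R to -0.40 in C1233W and those of MT-CO3 from -0.90 to -0.72, so neither passed the rule.

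The mixture of mRNAs therefore differed between the mutants and WT whatever the scaling. MT-ATP6 reads per 100 MT-CO1 reads were 94.0 in P1048R (93.0–95.03), 88.3 in T1202K (87.4–89.3) and 96.0 in C1233W (94.99–97.0), against 171 in WT (169–172). MT-CO1 made up 13.4% of mitochondrial mRNA reads in P1048R, 13.8% in T1202K and 13.4% in C1233W, against 9.13% in WT. MT-ATP6 made up 12.6%, 12.2% and 12.9% in the same order, against 15.6% in WT. For MT-ND4 the shares were 15.8%, 15.6% and 15.4% in the mutants and 15.4% in WT, and for MT-CYB 8.98%, 8.66% and 8.77%, against 8.72% in WT. In these shares the mutants lay close to each other for MT-CO1 and MT-ATP6, and WT stood apart from them.

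The 7 complex I mRNAs encode membrane-arm subunits of NADH dehydrogenase. Together they stood at 19774 CPM in P1048R, 20385.0 in T1202K and 24076 in C1233W, against 39315 CPM in WT. MT-ND2 (chrM:4470-5511) was the lowest of the heavy-strand members relative to WT, at 2519 CPM in P1048R, 2645 in T1202K and 3037 in C1233W, against 5764 CPM in WT. It passed the rule in P1048R (-1.19, -1.21 to -1.17) and T1202K (-1.12, -1.14 to -1.10), not in C1233W (-0.92). MT-ND5 stood at 4323, 4567 and 5743 CPM in P1048R, T1202K and C1233W, against 8833 CPM in WT, and passed in P1048R alone (-1.03); T1202K was close to the threshold at -0.95. MT-ND1 (1825, 1846 and 1925 CPM, against 3176 in WT) and MT-ND3 (1178, 1303 and 1309 CPM, against 2223 in WT) had log2 ratios between -0.92 and -0.72.

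MT-ND4L and MT-ND4, like the ATP synthase genes, share 1 mRNA, and their coding sequences overlap by 7 bases, in capitals here because the junction is where their reads join:
MT-ND4L/MT-ND4 junction (chrM:10737-10789, plus strand, GRCh38): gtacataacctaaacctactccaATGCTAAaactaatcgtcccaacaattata

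MT-ND4 stood at 6991 CPM in P1048R, 7121 in T1202K and 8281 in C1233W, against 13063 CPM in WT, with log2 ratios of -0.90, -0.88 and -0.66. MT-ND4L stood at 883, 850.2 and 873 CPM in the same mutants, against 1389 CPM in WT, with log2 ratios of -0.65, -0.71 and -0.67. Reads of MT-ND4L per 100 reads of MT-ND4 were 12.6 in P1048R (12.4–12.9), 11.9 in T1202K (11.7–12.2) and 10.5 in C1233W (10.3–10.8), against 10.6 in WT (10.4–10.8). The joint transcript was thus read in nearly the same proportion in C1233W and WT, and slightly differently in P1048R and T1202K. The complex III mRNA, MT-CYB for cytochrome b, stood at 3971, 3954 and 4703 CPM in P1048R, T1202K and C1233W, against 7383 CPM in WT (log2 -0.89, -0.90 and -0.65).

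**Figure D2:**
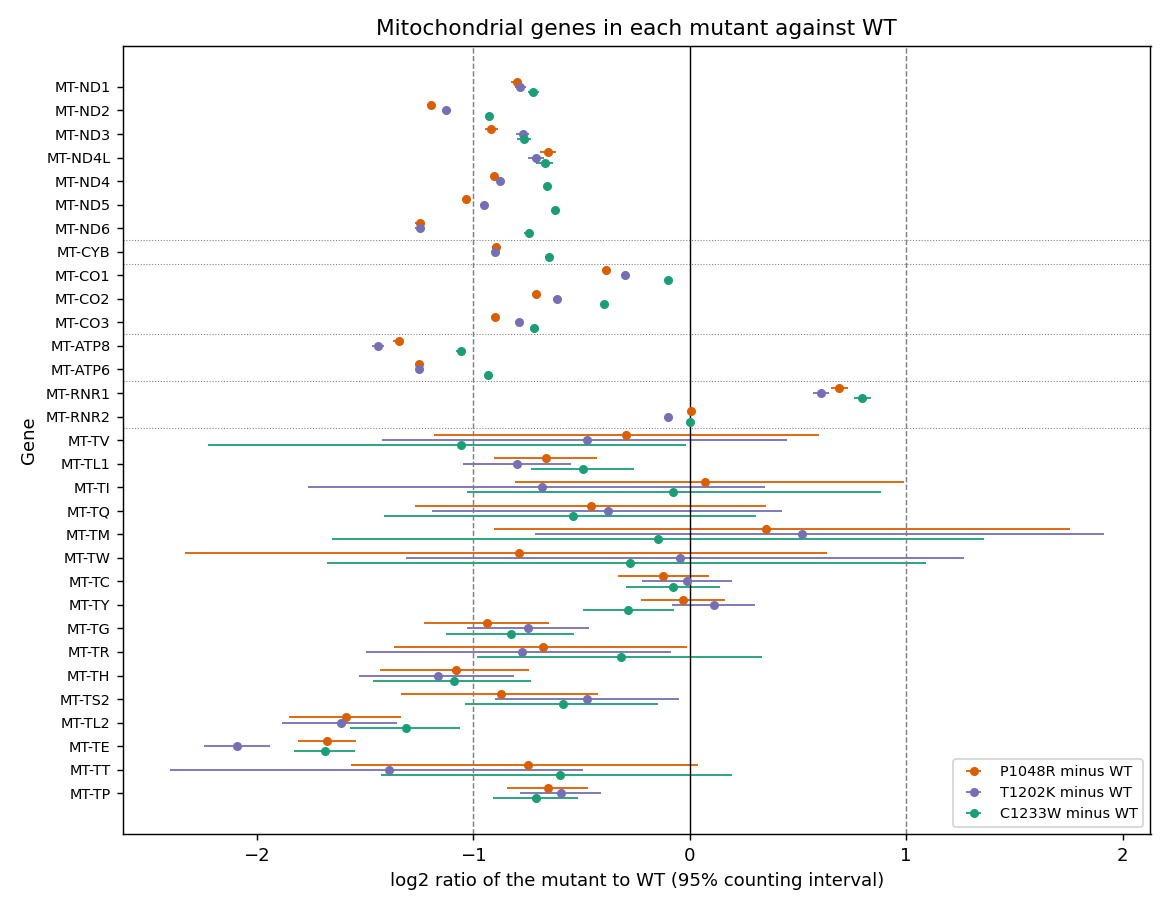
Log2 ratio of each mutant to WT (points, with 95% counting intervals as bars) for the 13 mRNAs, the rRNAs and the 16 tRNA genes compared, in that order down the page; dashed lines mark 2-fold. All mRNA points lie left of 0, MT-RNR1 lies right of it at 0.61 to 0.80, and MT-TE and MT-TL2 lie farthest left.

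MT-ND6, a complex I subunit, is the single mRNA of the light strand (chrM:14149-14673, minus strand). It stood at 2054 CPM in P1048R, 2053 in T1202K and 2909 in C1233W, against 4866 CPM in WT. Its log2 ratios were -1.24 (-1.27 to -1.22) in P1048R, -1.24 (-1.27 to -1.22) in T1202K and -0.74 (-0.76 to -0.72) in C1233W. The 12 heavy-strand mRNAs had medians of -0.90, -0.83 and -0.69 in the same comparisons. MT-ND6 reads per 100 heavy-strand mRNA reads were 4.87 in P1048R (4.81–4.94), 4.71 in T1202K (4.65–4.77) and 5.73 in C1233W (5.67–5.80), against 6.10 in WT (6.04–6.16). The light-strand share was lower in every mutant than in WT, least so in C1233W, and by less than 2-fold throughout. With no strand setting given in the sources used here, sense and antisense reads over a mitochondrial gene cannot be told apart.

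The rRNAs did not follow the mRNAs. MT-RNR2, the rRNA of the large mitochondrial ribosomal subunit (chrM:1671-3229), stood at 6952 CPM in P1048R, 6457 in T1202K and 6919 in C1233W, against 6909 CPM in WT. Its log2 ratios were 0.01 (-0.01 to 0.02), -0.10 (-0.11 to -0.08) and 0.00 (-0.01 to 0.02); on total-count scaling they were 0.23, 0.08 and 0.13, so the sign in T1202K depended on the scaling. MT-RNR1, the rRNA of the small subunit (chrM:648-1601), stood at 1458 CPM in P1048R, 1374 in T1202K and 1568 in C1233W, against 902 CPM in WT. It was higher by 0.69 (0.66–0.73), 0.61 (0.57–0.65) and 0.80 (0.76–0.84) on the log2 scale, short of 2-fold, and it was above WT under each scaling tried. Both rRNA genes lie near the start of the heavy-strand transcript, with MT-TV between them.

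Counted within a library, there were 19.0 rRNA reads per 100 mitochondrial mRNA reads in P1048R (18.9–19.2), 17.2 in T1202K (17.0–17.3) and 15.8 in C1233W (15.7–15.9), against 9.23 in WT (9.16–9.30). The ratio in the mutants was 2.06, 1.86 and 1.72 times that of WT. It was past 2-fold in P1048R alone, and with the overlapping mRNAs left out it fell short there too, at 0.97 on the log2 scale. MT-RNR1 reads alone, per mRNA read, were 3.10, 2.83 and 2.74 times those of WT, and MT-RNR2 reads 1.93, 1.73 and 1.58 times. MT-RNR1 reads per 100 MT-RNR2 reads were 21.0 in P1048R, 21.3 in T1202K and 22.7 in C1233W, against 13.1 in WT. The rRNAs thus also differed from each other between the mutants and WT.

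Per kb of annotated length, the order of the transcripts also differed. In each mutant, after the MT-ATP8 and MT-ATP6 mRNA, MT-CO2 stood at rank 3 of the 15 mRNAs and rRNAs. It was at 5353 CPM per kb in P1048R, 5734 in T1202K and 6646 in C1233W. MT-RNR2 stood at rank 6 in P1048R and T1202K, at 4459.5 and 4142 CPM per kb. In C1233W MT-RNR2 stood at rank 8, at 4438 CPM per kb. MT-CO1 was at ranks 8, 7 and 7 in P1048R, T1202K and C1233W, at 3832, 4083 and 4675 CPM per kb. In WT rank 3 was held by MT-ND4 (9479.7 CPM per kb), followed by MT-ND6 (9269), MT-CO3 (8810.0) and MT-CO2 (8753), while MT-CO1 (5014) and MT-RNR2 (4432) stood at ranks 10 and 13. The rRNA of the large subunit thus stood higher in the order in the mutants than in WT, with its own level nearly the same. MT-RNR1 was last in all 4 libraries, at 1528, 1440.4 and 1644 CPM per kb in P1048R, T1202K and C1233W, against 946 in WT.

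The level of rRNA in such libraries depends on how RNA was selected, and no selection step is named by the sources used here. Reads on nuclear rRNA genes and their pseudogenes numbered 74 in P1048R, 65 in T1202K and 70 in C1233W, against 78 in WT. The small cytosolic and nuclear RNAs RN7SL1, RN7SL2 and RN7SK summed to 148, 160.1 and 190.2 CPM in P1048R, T1202K and C1233W, against 244 CPM in WT. These RNAs, chosen after the values were seen, were therefore lower in the mutants than in WT, the direction opposite to MT-RNR1, and the part of RNA selection in the rRNA result was not tested.

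**Figure D3:**
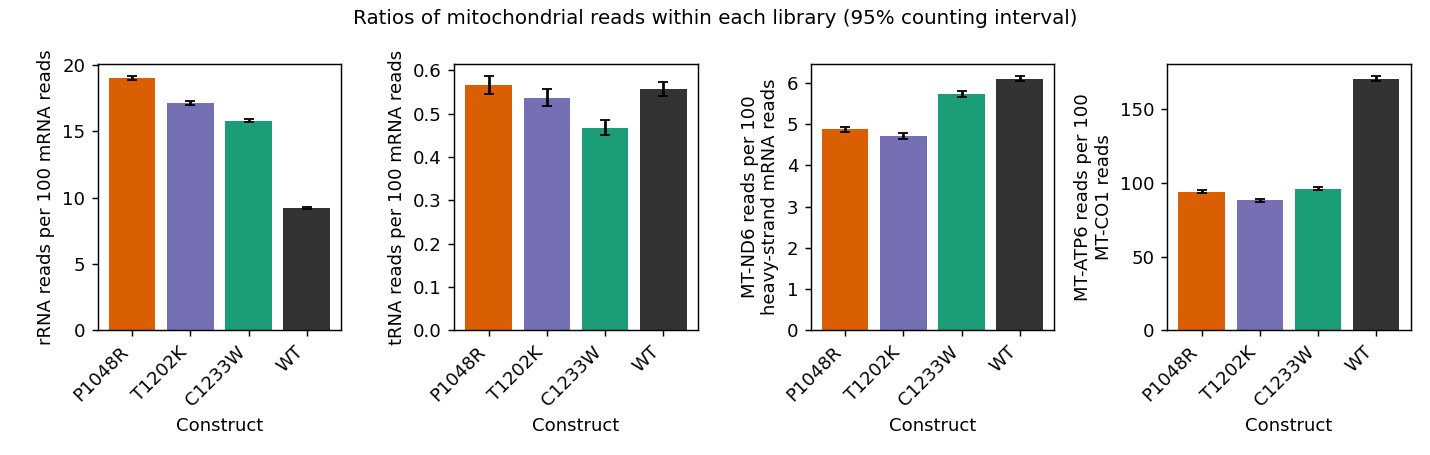
Ratios of reads counted within each library, which do not depend on library scaling, as bars with 95% counting intervals for the 3 mutants and WT: rRNA and tRNA per 100 mRNA reads, MT-ND6 per 100 heavy-strand mRNA reads, and MT-ATP6 per 100 MT-CO1 reads. The rRNA bars reach 15.8 to 19.0 in the mutants and 9.23 in WT, and the MT-ATP6 bars 88.3 to 96.0 in the mutants and 171 in WT.

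tRNA genes held few reads, 2983 in P1048R, 2774 in T1202K and 2594 in C1233W, against 4401 in WT. Mature tRNAs are short, folded and modified, and standard RNA libraries capture them poorly, so these counts can include uncut precursors. Of the 22 tRNA genes, 16 had at least 1 CPM in a library and were compared. MT-TF, MT-TA, MT-TN, MT-TS1, MT-TD and MT-TK did not reach that level, with at most 11 reads in any library. MT-TN had 0 reads throughout, which allows up to 0.251 CPM in P1048R, 0.265 in T1202K, 0.290 in C1233W and 0.321 in WT.

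The 16 tRNA genes compared summed to 247 CPM in P1048R, 242 in T1202K and 248 in C1233W, against 468 CPM in WT. Per 100 mRNA reads, all 22 tRNA genes gave 0.565 reads in P1048R (0.545–0.586), 0.537 in T1202K (0.517–0.557) and 0.468 in C1233W (0.450–0.486), against 0.556 in WT (0.540–0.573). These sums rest largely on MT-TE, which alone held 175 of the 468 CPM in WT. The median log2 ratio of the 16 tRNA genes was -0.67 in P1048R, -0.64 in T1202K and -0.56 in C1233W. Each was nearer to 0 than the mRNA median of the same mutant, -0.90, -0.88 and -0.72. Many of the 16 held few reads, and the 7 with at least 100 reads in each library had medians of -0.66, -0.75 and -0.71. In C1233W these 7 thus lay at about the mRNA median. The size rule was passed by 3 tRNA genes in P1048R, 4 in T1202K and 4 in C1233W, all lower, where 3.02%, 2.21% and 1.21% of all genes passed it downward. MT-TE, MT-TL2 and MT-TH were among them in each mutant, all 3 comparisons sharing the WT library, and the other calls, 1 in T1202K and 1 in C1233W, rest on 15 and 12 reads.

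**Figure D4:**
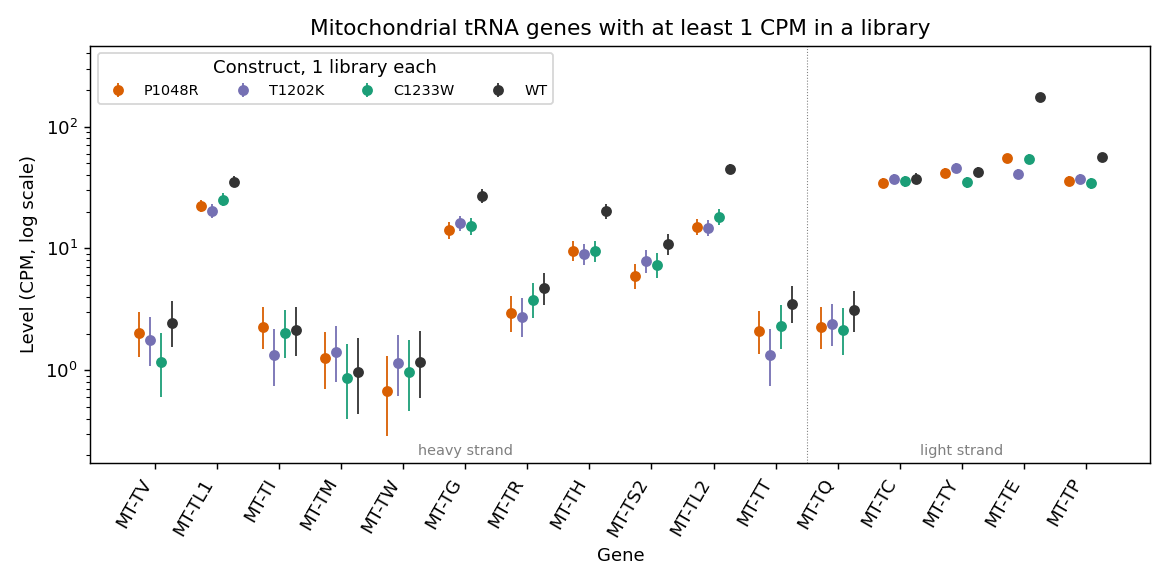
Level in CPM (log axis) of the 16 tRNA genes compared, those of the heavy strand left and those of the light strand right, with 1 point per construct and 95% Poisson counting intervals. The mutants stand far below WT for MT-TE (41.2 to 54.9 CPM, against 175 CPM in WT). The intervals of MT-TC overlap in all libraries, whereas MT-TY is lower in C1233W (34.9 CPM) than in T1202K (45.9 CPM), with intervals apart.

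The tRNA genes past the size rule in each mutant and, for contrast, light-strand neighbours with small ones have these sequences in the GENCODE 29 transcripts (GRCh38), with the anticodon, found as the middle of a loop closed by a paired stem, in capitals:
MT-TE (tRNA-Glu, chrM:14674-14742, minus strand): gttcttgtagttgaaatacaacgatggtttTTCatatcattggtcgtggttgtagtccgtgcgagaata
MT-TL2 (tRNA-Leu, chrM:12266-12336, plus strand): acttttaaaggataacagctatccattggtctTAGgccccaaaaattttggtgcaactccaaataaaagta
MT-TH (tRNA-His, chrM:12138-12206, plus strand): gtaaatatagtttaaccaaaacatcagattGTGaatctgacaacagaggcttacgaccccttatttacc
MT-TC (tRNA-Cys, chrM:5761-5826, minus strand): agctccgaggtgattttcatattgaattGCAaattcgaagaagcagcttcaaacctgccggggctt
MT-TY (tRNA-Tyr, chrM:5826-5891, minus strand): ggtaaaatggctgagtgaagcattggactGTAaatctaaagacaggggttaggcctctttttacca

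MT-TE, next to MT-ND6 on the light strand, stood at 54.9 CPM in P1048R (655 reads), 41.2 in T1202K (466 reads) and 54.5 in C1233W (563 reads), against 175 CPM in WT (1637 reads). Its log2 ratios were -1.67 (-1.81 to -1.54), -2.09 (-2.24 to -1.94) and -1.68 (-1.83 to -1.55), the lowest of any mitochondrial gene compared. It was lower beyond its neighbour: MT-TE reads per 100 MT-ND6 reads were 2.67 in P1048R (2.47–2.89), 2.0 in T1202K (1.82–2.197) and 1.87 in C1233W (1.72–2.03), against 3.599 in WT (3.42–3.78).

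MT-TL2, between MT-TS2 and MT-ND5 on the heavy strand, stood at 15.0 CPM in P1048R, 14.7 in T1202K and 18.2 in C1233W, against 45.2 CPM in WT. Its log2 ratios were -1.59 (-1.85 to -1.33), -1.61 (-1.88 to -1.35) and -1.31 (-1.57 to -1.06), and the last of these was short of 2-fold, at -0.94, after trend removal. Per 100 reads of its neighbour MT-ND5 it gave 0.347, 0.323 and 0.317 reads in the mutants, against 0.511 in WT. MT-TH, which follows MT-ND4 in the same tRNA cluster, stood at 9.55, 9.01 and 9.48 CPM in P1048R, T1202K and C1233W, against 20.2 CPM in WT (log2 -1.08, -1.16 and -1.09), and it was short of 2-fold in each mutant on total counts and after trend removal. MT-TS2, the tRNA-Ser gene between these neighbours, stood at 5.95, 7.86 and 7.25 CPM in the mutants, against 10.9 CPM in WT, and did not pass the rule.

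The remaining heavy-strand tRNA genes with over 100 reads in each library were MT-TL1, the tRNA-Leu gene between MT-RNR2 and MT-ND1, and MT-TG, the tRNA-Gly gene between MT-CO3 and MT-ND3. MT-TL1 stood at 22.4, 20.4 and 25.2 CPM in P1048R, T1202K and C1233W, against 35.4 CPM in WT. MT-TG stood at 14.1, 16.1 and 15.2 CPM in the same mutants, against 27.0 CPM in WT. Their log2 ratios, -0.94 to -0.49, lay in the range of the mRNAs. MT-TV passed the rule in C1233W on 12 reads, against 23 in WT (-1.06, -2.23 to -0.02), and MT-TT in T1202K on 15 reads, against 33 in WT (-1.39, -2.40 to -0.49). Calls on so few reads have wide intervals, and neither held after trend removal. MT-TR was at 2.74 to 3.77 CPM in the mutants and 4.71 in WT, and MT-TI, MT-TM, MT-TW and the light-strand MT-TQ had intervals that included 0 in each mutant.

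Among light-strand tRNAs, MT-TC and MT-TY, which lie side by side between MT-ND2 and MT-CO1, were close to their WT levels. MT-TC stood at 34.4 CPM in P1048R, 37.2 in T1202K and 35.5 in C1233W, against 37.4 CPM in WT, and its interval included 0 in every mutant (-0.33 to 0.09, -0.22 to 0.20 and -0.29 to 0.14). MT-TY stood at 41.6, 45.9 and 34.9 CPM in the same mutants, against 42.5 CPM in WT, with a ratio below 0 beyond counting error in C1233W alone (-0.28, -0.49 to -0.07). MT-TP, the tRNA-Pro gene nearest to the light-strand promoter, stood at 35.6, 37.1 and 34.2 CPM in P1048R, T1202K and C1233W, against 56.1 CPM in WT (log2 -0.65, -0.60 and -0.71). Light-strand RNAs thus did not move as 1 group. MT-TE was lowest in each mutant and MT-TC and MT-TY were nearest to WT, with MT-ND6 below MT-TP in P1048R and T1202K and within counting error of it in C1233W. Reads of MT-TC and MT-TY together per mRNA read were 1.82 times those of WT in P1048R, 1.93 times in T1202K and 1.39 times in C1233W.

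Between mutants 0 of the 31 mitochondrial genes compared passed the size rule. Of all genes, 1.24% did in T1202K against P1048R, 4.54% in C1233W against P1048R and 3.54% in C1233W against T1202K, so that a count of 0 is near the share of all genes and is no contrast with it. With counts thinned to equal totals, MT-TI passed in T1202K against P1048R. In T1202K against P1048R the mRNA ratios lay between -0.10 for MT-ATP8 and 0.14 for MT-ND3, with a median of 0.03. C1233W was above P1048R for 12 of 13 mRNAs beyond counting error (median 0.27), MT-ND4L being the exception at -0.02, and above T1202K for 11 of 13 (median 0.21), all but MT-ND3 (0.01) and MT-ND4L (0.04). The largest of these was MT-ND6, at 2909 CPM in C1233W against 2054 in P1048R and 2053 in T1202K, a log2 ratio of 0.50 in both comparisons. MT-ND5 followed in C1233W against P1048R, at 0.41 (0.39–0.43), and MT-ATP8 in C1233W against T1202K, at 0.38 (0.35–0.41). The 245 abundant genes outside the mitochondrial genome had a median of 0.15 in C1233W against P1048R, with 61 of them below 0. Against T1202K their median in C1233W was 0.03, with 101 below 0. On total counts the mRNA medians of C1233W were 0.18 against P1048R and 0.17 against T1202K, with 2 of 13 mRNAs below 0 in each. MT-TE was lower in T1202K than in P1048R by -0.41 (-0.59 to -0.24) and higher in C1233W than in T1202K by 0.40 (0.22–0.58). MT-TY was lower in C1233W, at -0.39 (-0.59 to -0.20) against T1202K and -0.25 (-0.45 to -0.06) against P1048R. MT-TL1 was higher in C1233W than in T1202K, at 0.30 (0.04–0.56).

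Copies of mitochondrial DNA inserted in nuclear chromosomes can take reads from the genes they resemble, or give reads to them. Of 407 such copies in the table, 13 were compared. MTATP6P1, on chromosome 1 (chr1:633696-634376, plus strand, GRCh38), had most reads, 8681 in P1048R, 8257 in T1202K and 9187 in C1233W, against 15609 in WT. Over 681 aligned bases it differs from MT-ATP6 in 10, an identity of 98.5%. The window of 120 bases with the most differences shows how alike they are, with the differing bases in capitals:
MT-ATP6 (chrM:8599-8718): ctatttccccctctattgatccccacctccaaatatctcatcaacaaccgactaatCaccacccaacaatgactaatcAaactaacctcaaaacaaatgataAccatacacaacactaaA
MTATP6P1 (chr1:633768-633887): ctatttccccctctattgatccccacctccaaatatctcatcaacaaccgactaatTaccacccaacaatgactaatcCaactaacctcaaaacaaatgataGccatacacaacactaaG

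MTATP6P1 reads per 100 MT-ATP6 reads were 13.1 in P1048R, 13.1 in T1202K and 12.8 in C1233W, against 12.6 in WT, and its log2 ratios to WT, -1.20, -1.20 and -0.91, were close to those of MT-ATP6, -1.25, -1.25 and -0.93. MTND2P28, 98.4% identical to MT-ND2, gave 7.88, 8.18 and 7.58 reads per 100 MT-ND2 reads in P1048R, T1202K and C1233W, against 6.45 in WT. MTCO1P12, 98.6% identical to MT-CO1, gave at most 0.541 per 100. MTATP8P1 (1.71 CPM in WT) and MTCO2P2 (1.18 CPM in WT) reached 1 CPM in WT alone, so the filter itself placed them below WT. All 13 copies were below WT in each mutant, with 7, 6 and 1 past the size rule in P1048R, T1202K and C1233W, beside 3.02%, 2.21% and 1.21% of all genes past it downward. MTATP6P1, MTND1P23, MTND6P4, MTND5P11 and MTND4P12 passed it in P1048R and T1202K, MTCO2P12 and MTATP8P1 in P1048R alone, MTRNR2L12 in T1202K alone, and MTND5P11 was the copy past it in C1233W. Apart from MTATP6P1 these had few reads, from 6 to 101 in the mutants and 16 to 160 in WT, where MTND4P12 had most. Whether their reads came from nuclear or mitochondrial transcripts was not tested, and adding the reads of these 3 copies to their mitochondrial counterparts changed no call.

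With TMM scaling, nuclear genes for the same respiratory enzymes were lower than in WT by less than the mitochondrial mRNAs. On total counts every ratio to WT within a mutant was higher by the same amount. The mRNA medians were then -0.68 in P1048R, -0.70 in T1202K and -0.59 in C1233W. That left the gap between mitochondrial and nuclear genes as it was, but the sign of the nuclear median in T1202K depended on the scaling. The 73 subunit genes of complexes I, III, IV and V, all compared, had median log2 ratios of -0.32 in P1048R, -0.14 in T1202K and -0.29 in C1233W. Their ratios ran from -0.94 to 0.71. None passed the size rule in any mutant, a count near the shares of all genes that passed it downward (3.02%, 2.21% and 1.21%) and so no result about these genes. By complex, the median in P1048R, T1202K and C1233W was -0.31, -0.10 and -0.28 for the 37 nuclear genes of complex I, against -0.92, -0.88 and -0.72 for its mitochondrial mRNAs. For the 16 nuclear genes of complex V it was -0.38, -0.22 and -0.37, against -1.30, -1.34 and -0.99 for MT-ATP6 and MT-ATP8. The 11 nuclear genes of complex IV had medians of -0.34, -0.17 and -0.20, against -0.71, -0.61 and -0.40 for the mitochondrial ones. In these 3 complexes the medians of mitochondrial and nuclear genes lay farther apart in T1202K than in P1048R, and they lay closest in complex IV of C1233W.

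**Figure D5:**
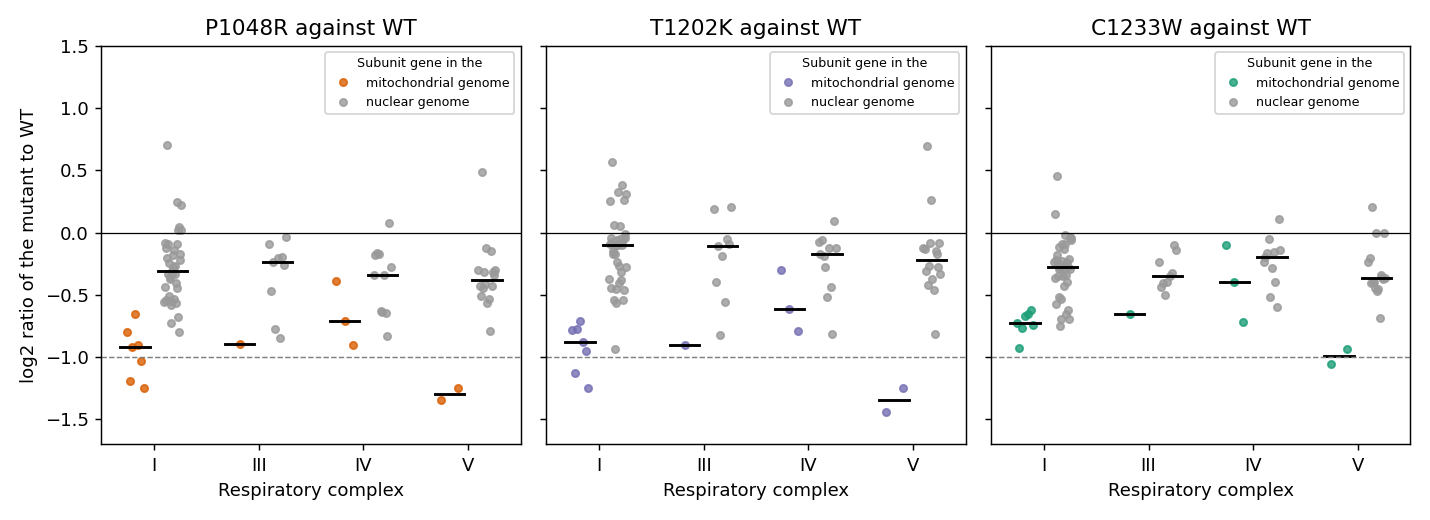
Log2 ratio of each mutant to WT for single subunit genes of the respiratory complexes, mitochondrial genes in colour left and nuclear genes in grey right, with black bars at the medians and a dashed line at 2-fold lower. In every complex the mitochondrial median lies below the nuclear one, most widely in complex V (-1.30 against -0.38 in P1048R).

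Genes that make and keep mitochondrial RNA were measured in the same libraries. Of 12 transcription and replication factors and 19 RNA processing and decay factors compared, 0 passed the size rule in any mutant. The rule has no p-value behind it. At shares of 3.02%, 2.21% and 1.21% of all genes downward, this count says nothing particular about these factors. POLRMT, the mitochondrial RNA polymerase, was higher than in WT beyond counting error, at 59.6 CPM in P1048R, 71.7 in T1202K and 57.9 in C1233W, against 46.5 CPM in WT (log2 0.36, 0.62 and 0.32). TFAM, which packages mitochondrial DNA and activates its promoters, stood at 238, 239 and 227 CPM in the mutants, against 295 CPM in WT (-0.31, -0.30 and -0.38). TFB2M, the factor that opens the promoters, was at 9.80, 10.3 and 7.74 CPM, against 9.31 CPM in WT, with intervals that included 0.

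LRPPRC and SLIRP form a complex that stabilises mitochondrial mRNAs. LRPPRC stood at 308 CPM in P1048R, 326 in T1202K and 355 in C1233W, against 396 CPM in WT, with log2 ratios of -0.36 (-0.43 to -0.30), -0.28 (-0.35 to -0.22) and -0.16 (-0.22 to -0.09). SLIRP stood at 108, 112 and 99.1 CPM in the same mutants, against 153 CPM in WT, with log2 ratios of -0.50, -0.45 and -0.63. On total counts every ratio to WT in C1233W was higher by the same amount, the mitochondrial mRNA median being -0.59 in place of -0.72. LRPPRC in C1233W then lay within counting error of WT. Among the mutants LRPPRC and the summed mRNAs were nearest to WT in C1233W, whereas SLIRP was farthest from it there. With 4 libraries this is a description.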

How the data were processed

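The authors deposited raw counts, whole-number reads per gene with 1 column per library and no normalization. The submitters' processing notes name Trim Galore, HISAT2, featureCounts and hg38. Not given in the sources used here are versions, annotation release, strand setting, RNA selection and how multi-mapped reads were treated. All 58735 gene identifiers matched GENCODE release 29 (GRCh38), which gave coordinates, strands and sequences. No value column lacked a sample.

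TMM factors, from edgeR 4.0.16 in R 4.3.3, were 1.07 for P1048R, 1.03 for T1202K, 0.999 for C1233W and 0.912 for WT. DESeq2 1.42.0 gave alternative size factors. Log2 ratios used counts plus 0.5; intervals of ratios are Clopper-Pearson, those of levels exact Poisson. They and the floor of 3 reads cover counting error only, since PCR copies are not independent molecules. With 1 library per construct no p-value was computed. The size rule, applied to the whole table, was tested on simulated libraries that held counting error alone. That test cannot show how far cultures of the same construct would differ.

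Named genes are all mRNAs and rRNAs, every tRNA gene with at least 1 CPM in a library, and LRPPRC, SLIRP, POLRMT, TFAM and TFB2M; nuclear lists were to add members past the rule in any mutant against WT. Members, lists and rules were chosen with earlier results of these data known. Of the factors listed, PRORP was not found under that symbol and was not analysed here. The summed level of the blood cell markers is not reported here. Alternatives were total counts, DESeq2 size factors, nuclear TMM, other filters, 2 added to each count, GC and length trend removal, thinned counts, overlapping genes left out of the mRNA reads and, chosen after seeing the data, reads of nuclear copies added.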

Additional observations from a re-analysis of the deposited data

How the results depend on the processing

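Of the 13 mRNAs, all were below WT in each mutant under every scaling, filter, added count, trend removal and thinning tried, except MT-CO1 in C1233W on total counts (0.03). The number of mitochondrial genes past 2-fold, 8 in P1048R, 8 in T1202K and 5 in C1233W, was 5, 6 and 2 on total counts, a setting that moved the median of all genes to 0.19, 0.17 and 0.13; relative to it the mRNA medians were -0.86, -0.87 and -0.71, as with TMM. After removal of the GC and length trend the numbers were 4, 3 and 1, MT-TE being past 2-fold in each mutant and MT-ATP6 in P1048R and T1202K. Thinning made MT-TI pass in T1202K against P1048R, 1 gene where there had been 0. The mRNA median of that pair, 0.03, turned to -0.0221 on total counts and -0.0009 with DESeq2 size factors. Without the overlapping mRNAs, the rRNA to mRNA ratio in P1048R against WT was 0.97 on the log2 scale in place of 1.04, no longer past 2-fold, and the tRNA to mRNA ratio -0.0548 in place of 0.02. The causes were not tested. For single genes still compared, 23 calls were lost and 1 was gained over all alternatives and comparisons, and no gene past 2-fold changed sign. Not in that count are MT-TT in T1202K and MT-TV in C1233W, which a stricter filter of 5 CPM left out of the comparison. Depth limits the 6 tRNA genes not compared and those under 100 reads.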
